A study of Mus musculus with 25 samples.

Results

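The 8 genes described here encode the sensors and regulators through which cells adjust cholesterol synthesis, uptake and export: Srebf2, Scap, Insig1, Insig2, Nr1h2, Nr1h3, Mylip and Stard4. They were taken as a fixed list of symbols, matched to Ensembl identifiers, and make up 8 of the 56956 genes in the count table. Their RNA was followed in the whole sciatic nerve of mouse models of Charcot-Marie-Tooth disease type 1A (CMT1A), an inherited neuropathy caused by extra copies of PMP22, a gene for a myelin protein of Schwann cells. The question was whether the lower expression of sterol synthesis in these nerves goes together with the expression pattern of sterol excess.

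There were 25 libraries in 5 groups, with 1 library per group at each of 5 ages (3, 5, 7, 9, 12 weeks). C3 mice (C57BL/6J background) carry 5 copies of a yeast artificial chromosome with human PMP22, and WT-C3 are C57BL/6J mice without it. C22 mice (FVB/NRJ background) carry 10 copies, and WT-C22 are FVB/NRJ mice without it. The fifth group is C3 mice in which c-Jun was deleted with P0Cre, which acts in Schwann cells; their exact background is not given in the sources used here, and these mice carry the human transgene as the C3 mice do. Copy number and strain change together between C3 and C22, so their effects cannot be told apart. Each library was made from a pool of 4 to 5 animals of both sexes. No group had a second pool at the same age, so the 5 ages served as the replicates of a group (n = 5) and each SD and standard error (SE) includes the change with age. Depth on genes ran from 2140142 to 49072746 counts, with the C3 library at 9 weeks as the shallowest; the labels give all libraries 1 batch. Human PMP22 lay at 10100 to 13938 CPM (counts scaled to library size; mean 12622 ± 1613) in C3, 9756 to 13905 CPM (11843 ± 1509) in C22 and 7867 to 16227 CPM in C3 without c-Jun, so that C22 and C3 overlapped in transgene RNA despite their copy numbers, and at most at 6.41 CPM in the controls, and Jun at 26.3 to 31.7 CPM in C3 without c-Jun against 93.8 to 125 CPM in C3. The markers of myelinating Schwann cells were detected in all libraries.

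Cells sense sterols in the membrane of the endoplasmic reticulum. When sterols are low, SCAP carries SREBP2, the product of Srebf2, to the Golgi, where proteases free the part that enters the nucleus and activates the genes of cholesterol synthesis and uptake; when sterols are high, INSIG1 and INSIG2 hold SCAP back. Insig1 and Stard4 are themselves SREBP2 targets. Oxysterols, formed as sterols build up, activate the nuclear receptors LXRα (Nr1h3) and LXRβ (Nr1h2), which induce exporters such as Abca1 and also Mylip, the ubiquitin ligase (IDOL) that sends lipoprotein receptors for degradation. Schwann cells make most of the cholesterol of myelin themselves.

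The promoters of Srebf2, Insig1 and Mylip are shown because these genes represent the factor, its feedback target and the LXR target whose expression is compared throughout. Each runs from 250 bases before to 50 bases after the start site in RefSeq (GRCm38.p6, which is not the GRCm39 build used for the counts). Capitals mark CCAAT boxes (ATTGG is their reverse complement), a sequence that often accompanies SREBP sites, and E boxes (CACGTG), to which SREBPs can also bind. The Srebf2 window is chr15:82147019-82147318 (plus strand), the Insig1 window chr5:28071162-28071461 (plus strand) and the Mylip window chr13:45389492-45389791 (plus strand).
Srebf2: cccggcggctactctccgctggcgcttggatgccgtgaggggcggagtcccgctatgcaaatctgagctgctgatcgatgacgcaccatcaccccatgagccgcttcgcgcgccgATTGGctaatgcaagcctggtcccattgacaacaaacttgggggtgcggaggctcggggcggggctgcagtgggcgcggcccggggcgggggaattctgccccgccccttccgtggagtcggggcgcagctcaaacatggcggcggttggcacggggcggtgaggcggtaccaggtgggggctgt
Insig1: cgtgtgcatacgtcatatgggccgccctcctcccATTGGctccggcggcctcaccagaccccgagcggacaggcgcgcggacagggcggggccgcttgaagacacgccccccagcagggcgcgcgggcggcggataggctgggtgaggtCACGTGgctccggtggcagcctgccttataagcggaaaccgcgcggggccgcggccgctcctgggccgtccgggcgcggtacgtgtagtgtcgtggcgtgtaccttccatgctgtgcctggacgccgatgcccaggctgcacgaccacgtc
Mylip: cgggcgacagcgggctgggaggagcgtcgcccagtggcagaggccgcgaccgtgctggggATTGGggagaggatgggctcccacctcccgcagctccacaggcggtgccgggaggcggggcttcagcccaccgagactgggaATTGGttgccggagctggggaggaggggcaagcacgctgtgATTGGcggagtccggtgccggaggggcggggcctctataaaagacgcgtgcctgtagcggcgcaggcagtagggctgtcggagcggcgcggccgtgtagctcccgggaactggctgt

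Promoters of 7 of the 8 genes were searched on both strands. A gene was counted if any of its promoters held the motif. The CCAAT box was present for 4 of them (Srebf2, Insig1, Insig2 and Mylip) and for 14 of 15 cholesterol synthesis enzymes with a promoter sequence. Over all 27025 genes it was present for 41.1% (37.4% of all 32851 promoters). The E box CACGTG was found for Scap and Insig1 and for 8.09% of all genes. The SREBP element TCACNCCAC was found for none of the 7 genes and for 1.44% of all genes. It was found for only 1 of the 15 cholesterol synthesis enzymes (Hmgcs1). The LXR element, a direct repeat of AGGTCA with NNNN between its copies, was likewise found for none of the 7 and for 0.0148% of all genes. It was found for 0 of 9 listed LXR targets with a promoter sequence. These exact strings thus miss most listed targets, and their absence does not show that a gene lacks such a site. No match of one motif overlapped a match of another in these 7 genes, and a match is a description of letters only.

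On the GRCm39 build, Srebf2 lies on chromosome 15 (82031382-82093201, plus strand), Scap on chromosome 9 (110158229-110214024, plus strand), Insig1 on chromosome 5 (28276315-28283668, plus strand) and Insig2 on chromosome 1 (121181760-121260400, minus strand). Nr1h2 lies on chromosome 7 (44199036-44203406, minus strand), Nr1h3 on chromosome 2 (91014394-91033417, minus strand), Mylip on chromosome 13 (45543215-45565501, plus strand) and Stard4 on chromosome 18 (33332197-33346942, minus strand). Exons of Srebf2 share 686 bases with Shisa8, those of Scap 53 bases with Ptpn23 and those of Nr1h3 256 bases with Acp2, each on the opposite strand. The library kit keeps the strand, but the strand setting of the counting is not given in the sources used here, so that reads in these shared bases are uncertain.

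All 8 genes passed the filter on low counts, which asked for 7 libraries with a log2 CPM over 1, and had counts in each library. Per kilobase of exon, Insig1 was the most abundant in the controls, with a mean level of 72.1 ± 12.8 (SD, n = 5) CPM per kb in WT-C3 and 59.1 ± 13.1 in WT-C22. Srebf2 followed with 36.1 ± 2.67 and 35.2 ± 2.92 CPM per kb. The LXRβ gene Nr1h2 stood at 25.1 ± 2.15 and 30.8 ± 3.01 CPM per kb, above the LXRα gene Nr1h3 at 7.94 ± 0.599 and 10.8 ± 1.71. Insig2 was the least abundant, at 6.73 ± 0.636 and 6.46 ± 0.215 CPM per kb. In C22 the order was different: Nr1h2 (35.6 ± 2.38) and Mylip (32.4 ± 3.06) had the highest levels per kb, Insig1 had 22.1 ± 9.14, and Stard4, at 3.55 ± 0.144, was the lowest.

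**Figure D1:**
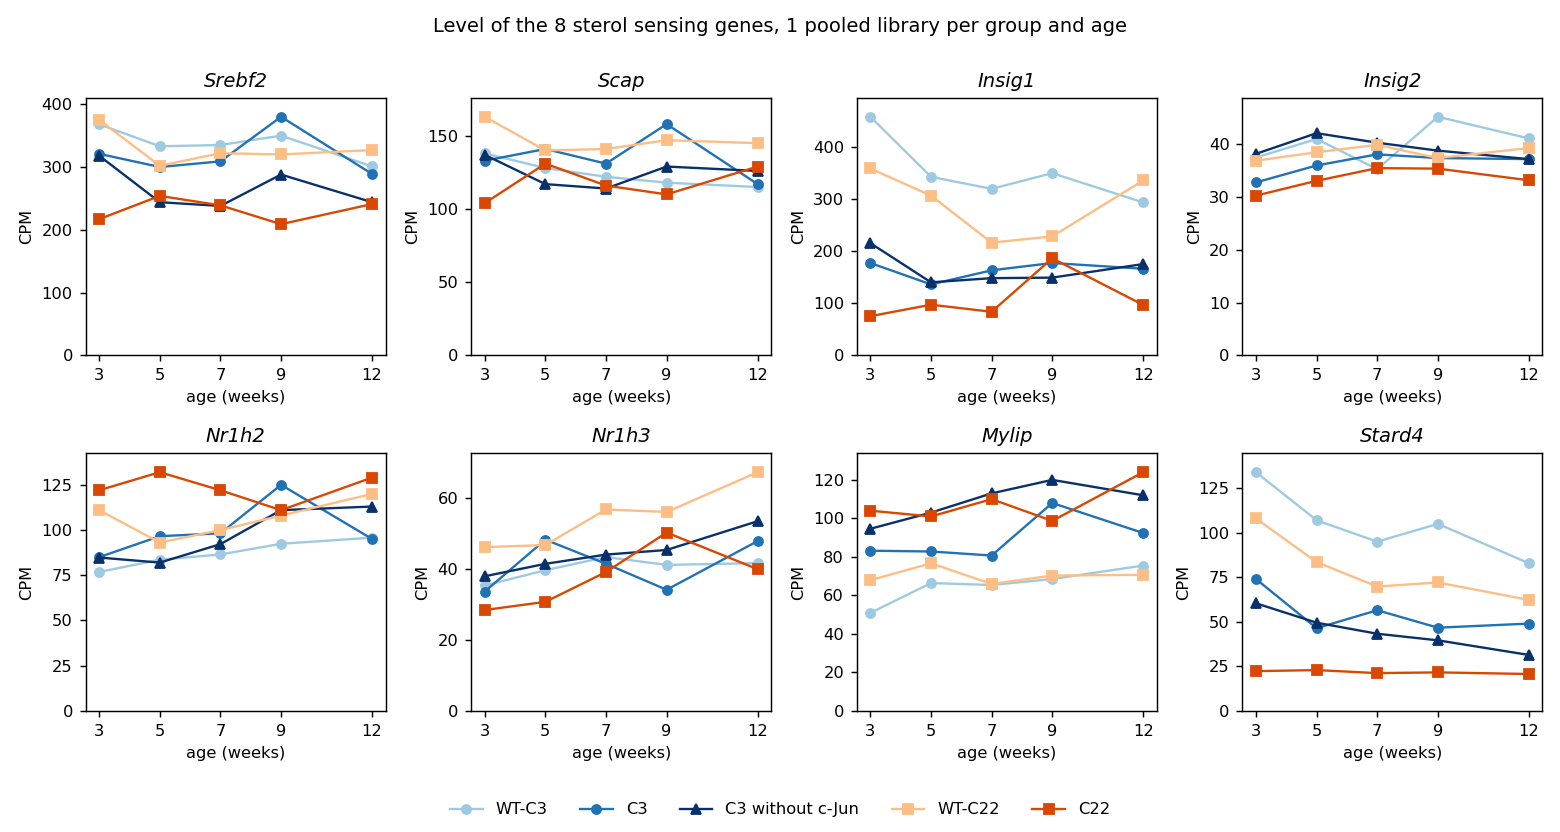
Level of each gene in CPM (vertical axis, from 0) against age in weeks (horizontal axis), with 1 point per pooled library and a line per group. Insig1 and Stard4 lie lower in the 3 transgenic groups than in their controls at each age, Mylip lies higher, and Srebf2 is lowest in C22 at 3, 9 and 12 weeks.

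Srebf2 and Scap, the factor and its escort, fell in C22 and did not pass the test in C3. Levels run from the youngest to the oldest library and are CPM scaled by TMM factors over the 25 libraries. In whole tissue, fewer cells of a type cannot be told apart from less RNA per cell. Srebf2 measured 217, 254, 239, 209 and 241 CPM in C22 and 375, 302, 322, 320 and 327 CPM in WT-C22. All C22 libraries lay under all WT-C22 libraries. The means were 232 ± 18.3 and 329 ± 27.2 CPM, a log2 fold change of -0.51 (SE 0.08, 95% interval -0.68 to -0.34, adjusted p = 0.000391 in the edgeR quasi-likelihood test). In C3 the same gene measured 321, 300, 309, 380 and 289 CPM, against 368, 333, 335, 350 and 301 CPM in WT-C3. These groups overlapped, and the log2 fold change was -0.08 (SE 0.09, interval -0.27 to 0.10, adjusted p = 0.513 in edgeR). The highest C3 value came from the shallow 9-week library, without which the log2 fold change was -0.14 (adjusted p = 0.188 in edgeR).

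Scap measured 104, 131, 116, 110 and 129 CPM in C22 and 163, 140, 141, 147 and 145 CPM in WT-C22, with no overlap and a log2 fold change of -0.33 (SE 0.08, adjusted p = 0.0053 in edgeR). In C3 it ran from 117 to 158 CPM against 115 to 138 CPM in WT-C3, and the log2 fold change was 0.12 (SE 0.08, interval -0.06 to 0.30, adjusted p = 0.301 in edgeR). The change in C22 lay below the change in C3 for both genes: the difference was -0.45 on the log2 scale for Srebf2 (SE 0.11, adjusted p = 0.0134 in edgeR, and 0.0648 with no filter on low counts) and -0.47 for Scap (SE 0.11, adjusted p = 0.0085 in edgeR). Of the 13993 genes tested, 7.31% had a lower and 4.75% a higher change in C22 than in C3 (12.1% in all), beside 3 lower and 0 higher of the 8 genes. With library sizes in place of TMM factors, the median of all genes in C22 against WT-C22 moved from 0.00 to 0.17, Scap stood at -0.16 (adjusted p = 0.0889 in edgeR) and Srebf2 still passed the test.

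Insig1 fell in both models. C3 nerves held 177, 136, 163, 177 and 166 CPM of it and WT-C3 nerves 457, 342, 319, 349 and 293 CPM. The groups did not overlap. Insig1 was at 164 ± 16.9 CPM against 352 ± 62.7 CPM, which is 2.15-fold lower on the fitted scale (log2 fold change -1.11, SE 0.12, interval -1.37 to -0.84, adjusted p = 0.000133 in edgeR). The level in C3 as a share of that in WT-C3 was 38.7% at 3 weeks and 56.6% at 12 weeks.

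In C22, Insig1 measured 75.2, 97.2, 83.6, 186 and 96.7 CPM, and in WT-C22 358, 306, 216, 228 and 335 CPM. Each C22 library lay below each WT-C22 library, with the 9-week C22 library nearest to them. The log2 fold change was -1.43 (SE 0.24, interval -1.96 to -0.90, adjusted p = 0.00067 in edgeR), and without the 9-week C22 library it was -1.71 (adjusted p = 2.22e-05 in edgeR). That library also had the highest summed level of 8 adipocyte markers in C22, 4229 CPM against 1519 to 2948 CPM in the other 4. Its summed level of 7 blood cell markers was 507 CPM against 133 to 211 CPM, and its sum of myelinating Schwann cell markers was the lowest of the group, 28061 CPM against 35514 to 42463 CPM. Over the 25 libraries Insig1 correlated with the blood cell sums at 0.44 (0.42 within groups), and with the adipocyte sums at -0.01 (-0.05 within groups). The part of these in its Insig1 level was not tested. The change in C22 minus that in C3 was -0.33 (SE 0.29, interval -0.94 to 0.27, adjusted p = 0.534 in edgeR) and without the 9-week C22 library -0.62 (adjusted p = 0.0542 in edgeR).

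Insig2, which does not depend on SREBPs in the way Insig1 does, moved little. It ran from 30.2 to 35.4 CPM in C22 and from 36.8 to 39.8 CPM in WT-C22, without overlap, and the log2 fold change was -0.20 (SE 0.06, adjusted p = 0.0166 in edgeR). The call was lost with library sizes alone (log2 fold change -0.03, adjusted p = 0.716 in edgeR), with no filter on low counts (adjusted p = 0.123 in edgeR) and without the 7-week WT-C22 library (adjusted p = 0.051 in edgeR). In C3 the range was 32.7 to 38.0 CPM against 35.2 to 45.1 CPM in WT-C3, a log2 fold change of -0.15 (SE 0.08, adjusted p = 0.212 in edgeR).

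Stard4 encodes a carrier that moves cholesterol between membranes in the cytosol, and its fall was the largest among the 8 genes in C22. The level in C22 was nearly flat over age, at 22.3, 22.9, 21.2, 21.6 and 20.7 CPM, while WT-C22 gave 108, 83.5, 69.8, 72.1 and 62.3 CPM. The highest C22 library was far below the lowest WT-C22 library. The mean was 21.7 ± 0.884 against 79.2 ± 17.9 CPM, 3.65-fold lower (log2 fold change -1.87, SE 0.13, interval -2.15 to -1.58, adjusted p = 9.04e-07 in edgeR). In C3 it measured 74.0, 46.4, 56.5, 46.7 and 49.0 CPM against 134, 107, 95, 105 and 82.9 CPM in WT-C3, again without overlap, and was 1.91-fold lower (log2 fold change -0.93, SE 0.15, adjusted p = 0.0016 in edgeR). The change in C22 lay 0.96 log2 units below that in C3 (difference -0.96, SE 0.21, adjusted p = 0.00502 in edgeR).

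Mylip rose in both models. In C22 it measured 104, 101, 110, 98.7 and 124 CPM, and in WT-C22 67.9, 76.7, 65.9, 70.3 and 70.7 CPM. The groups were apart, and the log2 fold change was 0.61 (SE 0.07, interval 0.44 to 0.77, adjusted p = 7.12e-05 in edgeR). In C3 the values were 83.2, 82.8, 80.7, 108 and 92.4 CPM against 50.9, 66.4, 65.4, 68.5 and 75.5 CPM in WT-C3. These did not overlap either, and the log2 fold change was 0.44 (SE 0.11, interval 0.20 to 0.68, adjusted p = 0.0146 in edgeR). The rise in C22 did not differ detectably from that in C3 (difference 0.15, SE 0.13, interval -0.13 to 0.43, adjusted p = 0.551 in edgeR).

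Of the receptors, Nr1h2 stood at 122, 132, 122, 111 and 129 CPM in C22 and 111, 93.1, 100, 108 and 120 CPM in WT-C22. C22 was higher at 5 of 5 ages, the groups overlapped, and the log2 fold change of 0.20 (SE 0.08, interval 0.03 to 0.37) narrowly missed the threshold (adjusted p = 0.0526 in edgeR). It passed with DESeq2 (adjusted p = 0.046), with library sizes alone (log2 fold change 0.37, adjusted p = 0.00219 in edgeR) and without the 9-week C22 or the 12-week WT-C22 library (adjusted p = 0.0279 and 0.015 in edgeR). C3 differed from WT-C3 by 0.18 log2 units (SE 0.10, adjusted p = 0.187 in edgeR).

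Nr1h3 fell in C22, at 28.4, 30.7, 39.1, 50.2 and 39.9 CPM against 46.1, 46.7, 56.7, 56.0 and 67.2 CPM in WT-C22. C22 was lower at 5 of 5 ages, though the 9-week C22 library lay within the range of the controls. The log2 fold change was -0.54 (SE 0.16, interval -0.88 to -0.20, adjusted p = 0.0154 in edgeR), and with library sizes alone it was -0.37 (adjusted p = 0.0921 in edgeR). In C3 the gene was at 33.6, 48.2, 41.4, 34.1 and 47.8 CPM against 35.3, 39.6, 43.3, 41.1 and 41.6 CPM in WT-C3, with a log2 fold change of 0.04 (SE 0.12, adjusted p = 0.821 in edgeR). The change in C22 minus that in C3 was -0.60 (SE 0.20, adjusted p = 0.0622 in edgeR), and passed the test in DESeq2 (adjusted p = 0.0438) and without the 3-week or 9-week C3 library or the 9-week C22 library (adjusted p = 0.0405, 0.0446 and 0.0159 in edgeR).

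Counted together, 2 of the 8 genes were lower and 1 higher in C3, where 11.4% and 12.5% of the 13993 genes tested were called lower and higher (23.9% in all). In C22, 6 were lower and 1 higher, where 20.5% and 21.9% of all genes were called (42.4% in all). The groups did not overlap for 2 lower genes and 1 higher gene in C3, beside 8.28% and 9.25% of all genes, and for 5 lower genes and 1 higher gene in C22, beside 14.5% and 16.0%. The median log2 fold change of the 8 genes was -0.02 in C3 and -0.42 in C22, beside 0.00 over all genes tested in each. Under library sizes alone the calls in C22 were 3 lower and 2 higher, and the share of higher genes among all calls went from 51.7% to 76.0% in C22 and from 52.1% to 71.4% in C3.

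**Figure D2:**
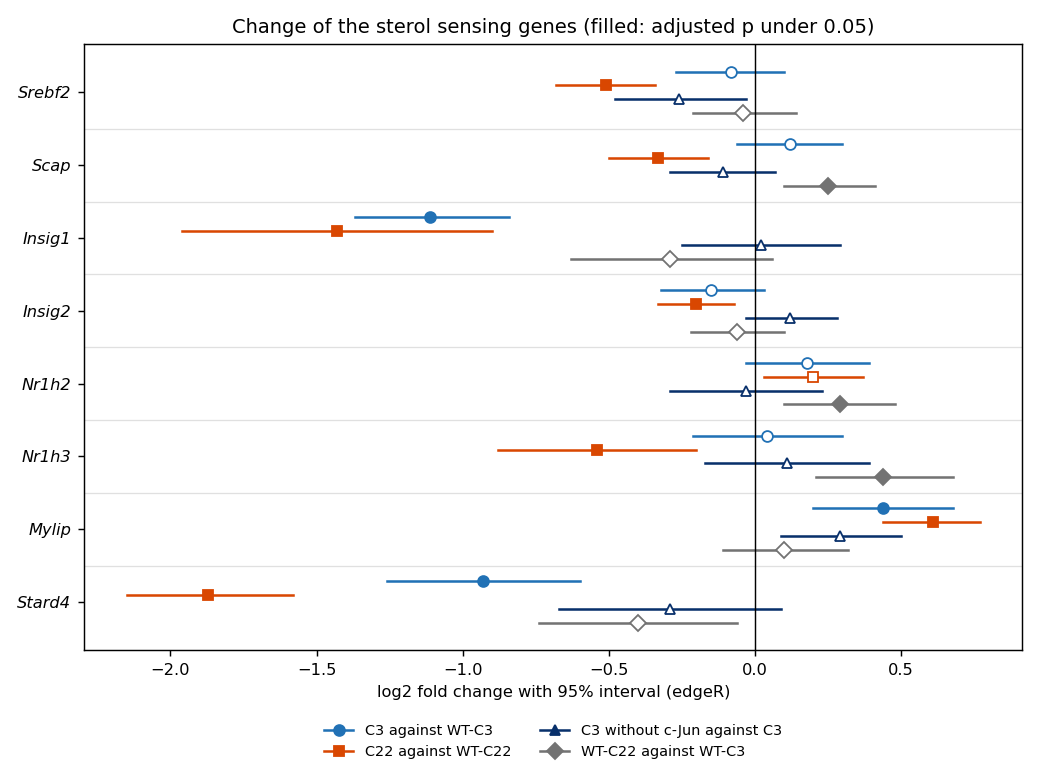
Log2 fold change (horizontal axis) of each gene in 4 comparisons, with 95% intervals from edgeR and filled symbols where the adjusted p is under 0.05. Insig1 and Stard4 are far below 0 and Mylip above it in both models, Srebf2, Scap, Insig2 and Nr1h3 are called lower in C22 and not in C3, and no symbol is filled for C3 without c-Jun against C3.

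The sciatic nerve holds Schwann cells beside fibroblasts, macrophages, vessels and fat. The marker calls below stand beside 11.4% of all genes called lower and 12.5% higher in C3, and 20.5% and 21.9% in C22. The summed level of 12 markers of myelinating Schwann cells was 28061 to 42463 CPM in C22 and 49873 to 101393 CPM in WT-C22, with 6 of the 12 called lower and 2 higher. In C3 it was 42431 to 62933 CPM against 62469 to 107026 CPM in WT-C3, with 4 lower and 2 higher. Over the 25 libraries the log2 level of this sum correlated at r = 0.92 with Stard4, 0.84 with Srebf2, 0.77 with Insig1 and -0.77 with Mylip, and within groups at 0.78, 0.61, 0.13 and -0.35. The links within groups were not particular to these markers. Within groups Stard4 correlated at 0.74 with summed fibroblast and -0.83 with summed adipocyte markers, and Mylip at -0.75 and 0.37. Over the 25 libraries these were 0.29 and -0.30 for Stard4, and -0.36 and 0.11 for Mylip. Summed markers of 14 macrophage genes were 425 to 621 CPM in C22 against 442 to 689 CPM in WT-C22 and 483 to 629 CPM in C3 against 439 to 749 CPM in WT-C3, with 3 of the 14 called higher and 1 lower in C22 and 2 higher in C3, and none at 0 in any library. Markers of repair Schwann cells, the state these cells take up after injury, summed to 217 to 308 CPM in C3 against 62.7 to 87.1 CPM in WT-C3, and to 114 to 186 CPM in C22 against 55.6 to 82.1 CPM in WT-C22. Of 10 such markers 5 were tested, and 5 were called higher in C3 and 4 higher and 1 lower in C22. Their log2 sum correlated at 0.58 with Mylip, -0.66 with Insig1 and -0.50 with Stard4 over the 25 libraries, and within groups at -0.17, -0.18 and 0.31. The part of the state and share of Schwann cells in these changes was not tested.

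For the adipocyte markers the sums were 1519 to 4229 CPM in C22 and 1617 to 5277 CPM in WT-C22, and 442 to 3072 CPM in C3 and 1356 to 2881 CPM in WT-C3, with 0 of the 8 called in edgeR in either model (1 in C3 and 0 in C22 at an unadjusted p under 0.05). Nr1h3 followed these sums at r = 0.65 over the 25 libraries and 0.78 within groups and Nr1h2 at 0.49 and 0.50. LXRα is abundant in fat and macrophages, and Nr1h3 correlated with the summed macrophage markers at 0.47 and, within groups, 0.64. Its correlation with the summed markers of endothelial cells and pericytes was higher, at 0.77 and, within groups, 0.81. These 8 vessel markers summed to 572 to 824 CPM in C22 and 877 to 1092 CPM in WT-C22, without overlap, with 6 of 8 called lower. In C3 they summed to 636 to 883 CPM against 857 to 981 CPM in WT-C3, with 1 of 8 called lower. Of all genes, 20.5% were called lower in C22 and 11.4% in C3. Within groups, Nr1h3 also ran against the summed markers of myelinating Schwann cells (-0.78) and fibroblasts (-0.55). Over the 25 libraries these correlations were -0.06 and -0.39. All these libraries share depth scaling and age, and the part of any of these cell types in the Nr1h3 values was not tested.

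**Figure D3:**
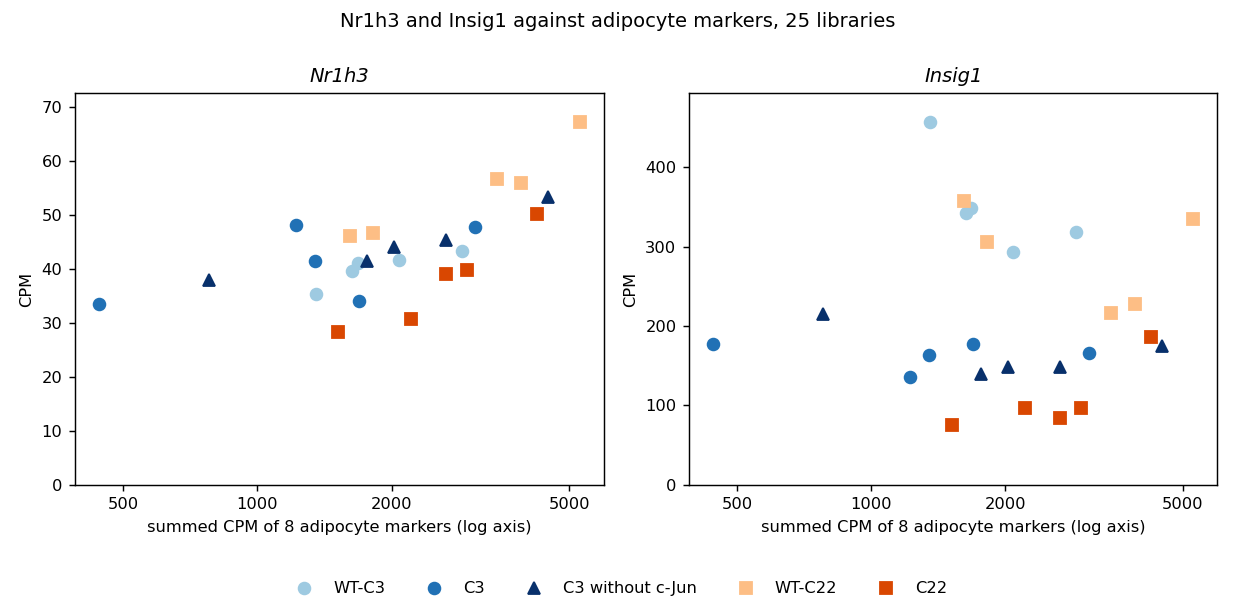
Level of Nr1h3 and Insig1 in CPM (vertical axes, from 0) against the summed level of 8 adipocyte markers (log axis), 1 point per library. For Nr1h3, with r = 0.78 within groups, C22 and WT-C22 overlap along the marker axis, and the part of fat in its values was not tested. The highest C22 point for Insig1 is the library with the highest marker sum of that group.

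Most of the listed SREBP2 targets were lower in both models. Of 20 cholesterol synthesis enzymes 17 were lower in C3 and 20 in C22, with median log2 fold changes of -1.05 and -2.15. In C22 Sc5d, which encodes a late enzyme of the pathway, changed by -2.70 (SE 0.16). Of 13 other SREBP2 targets 11 were tested, and 8 were lower in C3 and 7 in C22, none higher (medians -0.74 and -1.05). Beside both lists, 11.4% of all genes were called lower in C3 and 20.5% in C22. The fatty acid genes Fads1 (-1.58), Fads2 (-1.78) and Elovl6 (-1.85) were also lower in C22. The list of other SREBP2 targets mixes genes of cholesterol and fatty acid metabolism, so its counts are not specific to SREBP2.

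Stard4 was the gene of the 8 that stood closest to the synthesis enzymes, with a Pearson correlation of 0.98 between its log2 CPM and the mean log2 CPM of the 20 enzymes over the 25 libraries, and 0.92 within groups. The correlations were 0.90 for Insig1 (0.44 within groups), 0.85 for Srebf2 (0.52) and -0.88 for Mylip (-0.64). For Nr1h2 the values were -0.64 and -0.55, for Scap 0.51 and 0.43, for Insig2 0.48 and -0.27 and for Nr1h3 0.18 and -0.59. These are descriptions over libraries that share scaling, age and group. Among all 13993 genes tested, the 3 whose pattern was most like that of Stard4 were the synthesis enzymes Msmo1, Fdft1 and Sc5d, each at 0.98. Insig1 was nearest to Pmvk (0.96), a kinase of the mevalonate pathway, followed by Olfml1 and Tmem50b (0.92 each). Srebf2 was nearest to Fam178b and Gna12 (0.90 each) and Mfsd13a (0.89), and Mylip to Runx1 (0.91), Plppr3 and Plekhm2 (0.90 each). The nearest genes were Gtpbp6 (0.95), Sec1 (0.92) and Akr7a5 (0.89) for Nr1h2, Actn1 (0.89), Atp2b4 (0.88) and Cpne8 (0.87) for Nr1h3, Caskin2 and Mvb12b (0.87 each) and Ppp1r21 (0.86) for Scap, and Cyp2c23 (0.84), Adss2 (0.81) and Lrrtm3 (0.80) for Insig2.

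**Figure D4:**
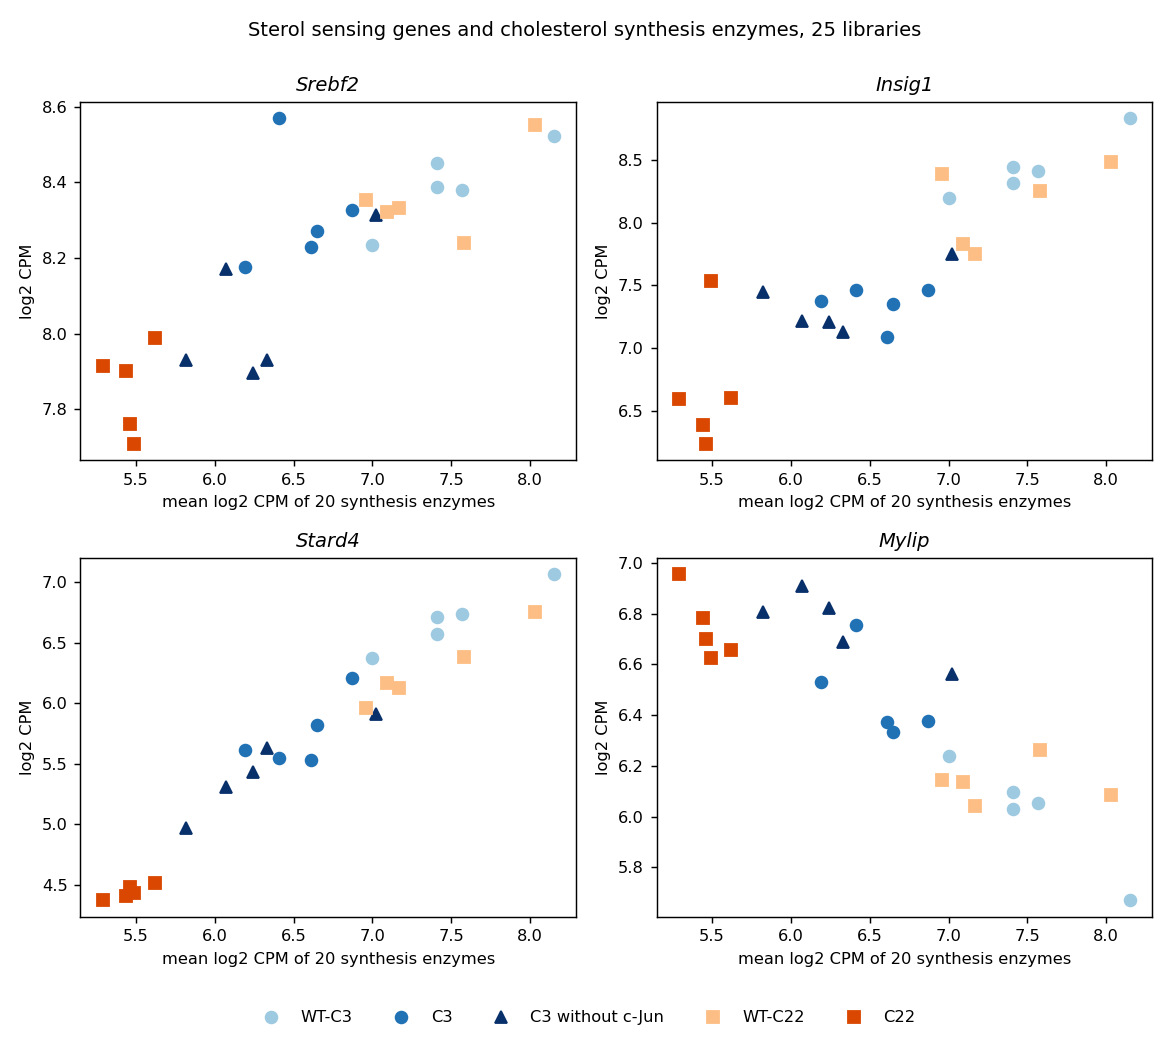
Log2 CPM of Srebf2, Insig1, Stard4 and Mylip (vertical axes) against the mean log2 CPM of 20 cholesterol synthesis enzymes (horizontal axis), 1 point per library. Stard4 tracks the enzymes across and within groups, Mylip runs in the opposite direction, and the C22 libraries sit at the low end for the enzymes.

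Among LXR targets calls went in both directions. Of 17 listed, 14 were tested, and 3 were higher and 3 lower in C3 (median log2 fold change -0.17), and 5 higher and 1 lower in C22 (median 0.29). The 6 of 14 called in C22 in either direction are near the 42.4% of all genes called there. By direction, the 5 higher are a larger share of the 14 than the 21.9% of all genes called higher. The 1 lower is a smaller share than the 20.5% called lower. In C3 the 3 higher and 3 lower are larger shares of the 14 than the 12.5% and 11.4% of all genes called (23.9% in all). These departures from the shares of all genes, in C22 and in C3, were not tested. Abca1, the exporter that loads cholesterol onto apolipoproteins, stood at 167 ± 8.24 CPM in C22 against 69.7 ± 16.7 CPM in WT-C22 (log2 fold change 1.25, SE 0.15, adjusted p = 5.33e-05 in edgeR) and at 105 ± 14.8 CPM in C3 against 51.5 ± 8.44 CPM in WT-C3 (1.03, SE 0.13, adjusted p = 0.000366 in edgeR). In C22 the exporter gene Abcg4 (0.70, SE 0.13), Arl4c (0.81, SE 0.19), the efferocytosis receptor Mertk (0.48, SE 0.13) and Abcg1 (0.29, SE 0.09) also rose, and in C3 Mertk (0.85, SE 0.13) and Apoe (0.53, SE 0.13). The desaturase genes Scd1 (-1.0, SE 0.21) and Scd2 (-0.58, SE 0.16) and the lipase gene Lpl (-0.81, SE 0.27) fell in C3, and Scd2 (-0.93, SE 0.16) in C22; SREBPs drive the desaturases as well. Srebf1, an LXR target that encodes SREBP1, had log2 fold changes of 0.36 (SE 0.14, adjusted p = 0.0834 in edgeR) in C3 and 0.53 (SE 0.21, adjusted p = 0.0624 in edgeR) in C22. For the difference between C22 and C3, 0 of the 14 passed in edgeR, with 3 at an unadjusted p under 0.05 and a lowest adjusted p of 0.0731.

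**Figure D5:**
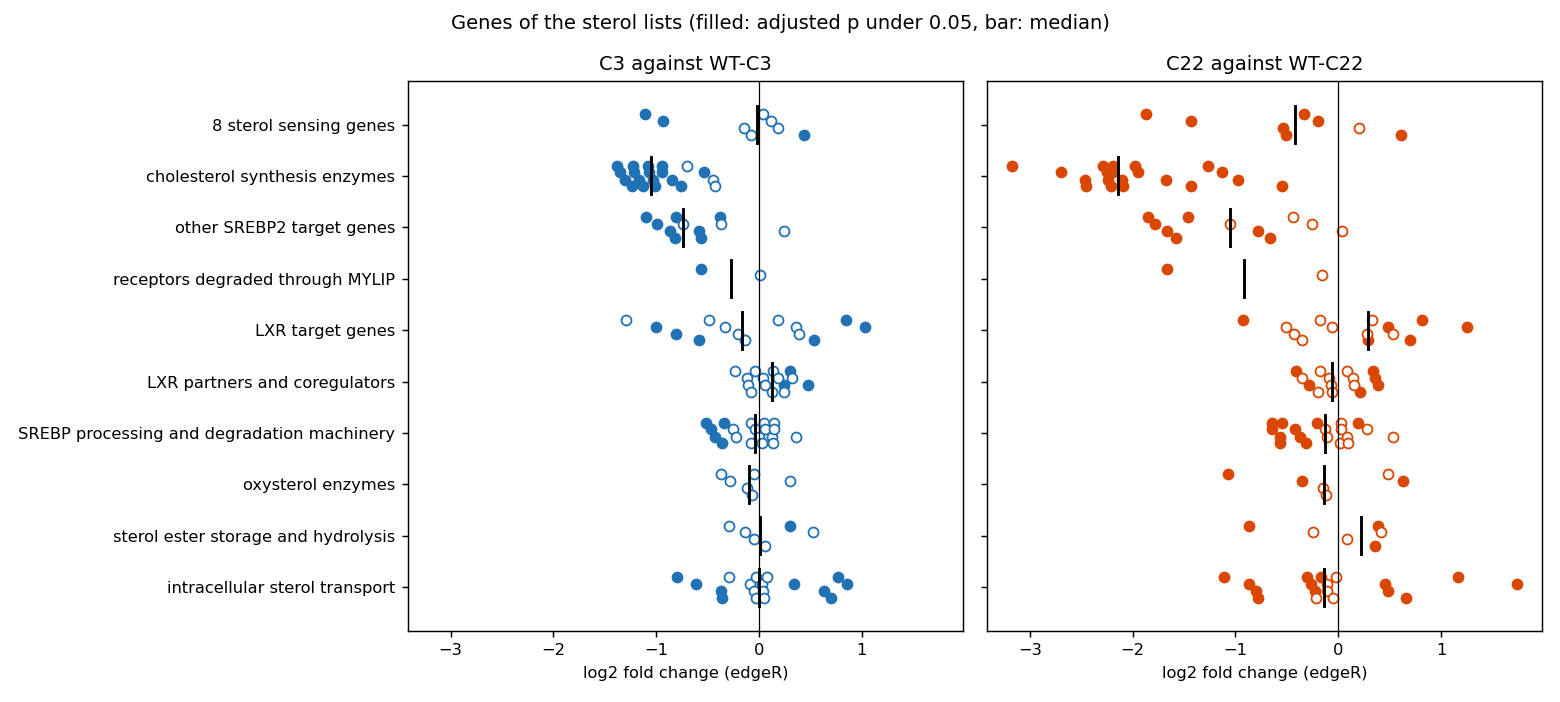
Log2 fold change (horizontal axis) of the genes in each sterol list for C3 against WT-C3 and C22 against WT-C22, with filled points at an edgeR adjusted p under 0.05 and a bar at the median. The synthesis enzymes and other SREBP2 targets lie mostly below 0, with medians of -1.05 and -0.74 in C3 and -2.15 and -1.05 in C22, while the LXR targets lie on both sides.

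Of 3 lipoprotein receptors on which MYLIP acts 2 were tested, and 1 was called lower in C3 and 1 in C22. Of all genes, 11.4% were called lower in C3 and 20.5% in C22. The receptor called lower is not reported here by name. Vldlr, the other receptor tested, was at 46.9 ± 3.20 CPM in C3 against 46.8 ± 5.68 CPM in WT-C3 (adjusted p = 0.939 in edgeR). In C22 it was at 67.6 ± 7.74 CPM against 75.1 ± 5.76 CPM in WT-C22 (adjusted p = 0.161 in edgeR). Lrp8 did not pass the filter. These are levels of RNA, on which the ligase does not act.

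Among 19 genes that process SREBPs or degrade their regulators, 5 were lower and none higher in C3, and 9 lower and 1 higher in C22, with medians of -0.04 and -0.13. Of all genes, 11.4% were called lower and 12.5% higher in C3, and 20.5% and 21.9% in C22. The ubiquitin ligase gene Rnf139 had a log2 fold change of -0.52 (SE 0.08) in C3 and -0.57 (SE 0.06) in C22. Pgrmc1, a sterol binding protein, had -0.47 (SE 0.09) and -0.64 (SE 0.08), and Marchf6, the ligase for squalene epoxidase, -0.36 (SE 0.10) and -0.55 (SE 0.07). Rnf145 was lower in both too (-0.34, SE 0.08, and -0.31, SE 0.09), and Erlin2, which takes part in the degradation of HMG-CoA reductase, passed the test in C22 (-0.57, SE 0.07). Of 15 partners and coregulators of LXR, 3 were higher and none lower in C3 and 4 were higher and 2 lower in C22, which is no more than the 23.9% and 42.4% of all genes called in C3 and C22. Rxrb (0.30, SE 0.08, and 0.34, SE 0.06), a partner receptor, was higher in both. Rxrg was higher in C3 (0.24, SE 0.08) and lower in C22 (-0.28, SE 0.10), and that difference passed the test (-0.54, adjusted p = 0.00533 in edgeR).

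Of 6 oxysterol enzymes tested, 0 passed in C3 in edgeR, with 1 at an unadjusted p under 0.05 and log2 fold changes from -0.37 to 0.30. In C22 Cyp46a1, a cholesterol 24-hydroxylase, fell from 10.4 ± 1.81 to 4.95 ± 0.708 CPM (log2 fold change -1.07, SE 0.15, adjusted p = 0.000153 in edgeR), Cyp27a1 was lower (-0.35, SE 0.12), and Ch25h was higher (0.63, SE 0.18) at low levels, 2.27 ± 0.509 against 1.46 ± 0.154 CPM. Soat1, which esterifies cholesterol for storage, was higher in C3 (0.30, SE 0.08, adjusted p = 0.0159 in edgeR) and in C22 (0.39, SE 0.08, adjusted p = 0.00245 in edgeR). Lipa, the lysosomal esterase, was lower in C22 (-0.87, SE 0.08, adjusted p = 8.35e-06 in edgeR), and Nceh1, a neutral esterase, was higher there (0.36, SE 0.10). Of 18 genes of intracellular sterol transport, 5 were higher and 4 lower in C3 and 5 higher and 8 lower in C22. Over all genes the shares called higher and lower were 12.5% and 11.4% in C3 and 21.9% and 20.5% in C22. The endosomal carrier gene Npc2 was lower in both (-0.80, SE 0.08, in each), as was Stard3nl (-0.61, SE 0.08, and -0.87, SE 0.07), while Gramd1b, which brings sterol from the plasma membrane to the endoplasmic reticulum, was higher in both (0.77, SE 0.14, and 1.16, SE 0.11).

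Deletion of c-Jun in the Schwann cells of C3 mice changed none of the 8 genes at an edgeR adjusted p under 0.05, where 0.329% of all genes were called lower and 0.222% higher (0.550% in all). At an unadjusted p under 0.05 there were 2 genes, and DESeq2 called none. Mylip measured 94.6, 103, 113, 120 and 112 CPM without c-Jun and was higher than in C3 at 5 of 5 ages (log2 fold change 0.29, SE 0.09, interval 0.09 to 0.50, adjusted p = 0.339 in edgeR). Srebf2 measured 318, 244, 238, 288 and 244 CPM and was lower at 5 of 5 ages (-0.26, SE 0.10, interval -0.48 to -0.03, adjusted p = 0.539 in edgeR). Each overlapped with C3, as did the other 6 genes, while 1.16% and 1.09% of all genes did not overlap in the higher and lower direction. Insig1, at 215, 140, 148, 149 and 175 CPM, had a log2 fold change of 0.02 (interval -0.25 to 0.29), and Stard4, at 60.4, 49.5, 43.3, 39.6 and 31.4 CPM, one of -0.29 (interval -0.67 to 0.09). Libraries of equal age resembled each other in this comparison, while the values above come from the fit without a block for age. An edgeR fit that took age as the block found 273 genes (60.1% of them higher) in place of 77 (40.3% higher), still none of the 8 (Mylip adjusted p = 0.0918 and Srebf2 0.147).

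The control strains differed for 3 of the 8 genes, all higher in WT-C22 than in WT-C3, where 9.99% of all genes were called higher and 11.7% lower (21.7% in all), and where 7.60% and 9.33% did not overlap in the higher and lower direction. Nr1h3 was at 54.5 ± 8.67 CPM against 40.2 ± 3.03 CPM (log2 fold change 0.44, SE 0.11, adjusted p = 0.0107 in edgeR), without overlap, beside an adipocyte marker list of which 5 of 8 were called higher in WT-C22; their part in it was not tested. Scap was 0.25 higher (SE 0.07, adjusted p = 0.0253 in edgeR) and Nr1h2 0.29 higher (SE 0.09, adjusted p = 0.0301 in edgeR), the latter with overlap. The Scap call was lost when WT-C3 at 7, 9 or 12 weeks or WT-C22 at 3 or 9 weeks was left out (adjusted p in edgeR from 0.0543 to 0.0575). The Nr1h2 call was lost when WT-C3 at 3, 5 or 7 weeks or WT-C22 at 3, 9 or 12 weeks was left out (from 0.0569 to 0.0685) and with library sizes alone (0.0707). Stard4 was lower at 5 of 5 ages (-0.40, SE 0.16, adjusted p = 0.0877 in edgeR), and passed the test without the 3-week WT-C22 library (-0.54, adjusted p = 0.0136 in edgeR). It also passed with library sizes alone (-0.42, adjusted p = 0.0491 in edgeR). With age as a block it passed too (-0.41, adjusted p = 0.00124 in edgeR), although these libraries were not taken as pairs.

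Across age, changes within groups were called for Nr1h3, Stard4 and Nr1h2. In a spline fit of age over all 25 libraries, 1 of 40 combinations of gene and group passed, Nr1h3 in C22 (adjusted p = 0.0408 in edgeR), where 0.752% of the 15298 genes in that fit were called. The call was lost with the log2 CPM filter (adjusted p = 0.0535 in edgeR) and with 2 degrees of freedom (0.192). In the other groups, where no member was called, the share of all genes was 3.38% in C3 without c-Jun, 2.27% in C3, 0.693% in WT-C3 and 2.86% in WT-C22. With a linear slope, Stard4 fell by 0.08 log2 units per week in WT-C22 (SE 0.02, adjusted p = 0.0166 in edgeR) and by 0.10 in C3 without c-Jun (SE 0.02, adjusted p = 0.00895 in edgeR), where 3.88% and 2.69% of all genes were called falling. Nr1h2 rose by 0.06 per week in C3 without c-Jun (SE 0.02, adjusted p = 0.0309 in edgeR), where 3.28% of all genes were called rising. That call was lost with median-ratio factors and the log2 CPM filter (adjusted p = 0.0517 and 0.0599 in edgeR) and in 11 of the 25 fits with a library left out. The slope of Stard4 was -0.06 in WT-C3, -0.05 in C3 and -0.01 in C22, none of which passed. All genes called rising and falling were 3.52% and 2.44% in C3, 1.07% and 1.56% in WT-C3 and 0.477% and 0.307% in C22, and 3.88% rose in WT-C22. For Mylip the slopes were 0.05 in WT-C3 (adjusted p = 0.0945 in edgeR), 0.03 in C3, C22 and C3 without c-Jun, and 0.00 in WT-C22. The test for a difference in slope called 0 of the 8 genes in edgeR, whether C3 or C22 was set against its control or C3 without c-Jun against C3, where 0.0196%, 0.464% and 0.00654% of all genes were called. At an unadjusted p under 0.05 there was 1 gene, Stard4 in C22 against WT-C22, with a slope difference of 0.07 (SE 0.03, adjusted p = 0.312 in edgeR).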

How the data were processed

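Per the labels and the paper, RNA of pooled sciatic nerves was poly(A) enriched, made into strand-keeping libraries and sequenced in pairs. Per the submitters' processing notes and the paper, the authors checked reads with FastQC 0.11.9, clipped adapters with cutadapt 2.10, aligned with STAR 2.7.5a to GRCm39 with the human transgene locus added, removed duplicates with UMI-tools 1.1.1 and counted with HTSeq 0.12.4 on Ensembl 110. The authors deposited raw counts per gene, without normalization. Entries that name no gene were left out: reads outside genes (8.12% to 12.11% of a library), ambiguous reads (1.78% to 2.04%) and reads not aligned uniquely (2.76% to 3.93%).

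The members and lists were chosen with earlier results of these data known. From the deposited counts, CPM were computed with TMM factors in edgeR 4.0.16 (R 4.3.3). A gene was kept if 7 or more libraries (25%) exceeded a log2 CPM of 1, which left 13993 genes. Groups were compared with the edgeR quasi-likelihood test with group as its only term and Benjamini-Hochberg adjustment over all genes kept (threshold 0.05), with TMM factors among the libraries compared. The SE was taken from the log2 fold change and its F value. Age was tested in all 25 libraries over 15298 genes (filterByExpr) with a natural spline of 3 degrees of freedom and with a linear slope (5 and 15 residual degrees of freedom). Correlations are Pearson r of log2 CPM, and within groups after removal of group means. The genes named are the 8 members, the 4 genes of a list with the lowest p where more than 4 passed, and the 3 genes most like each member; the other genes named from the lists (among them Srebf1, Vldlr and, of the LXR targets, Mertk and Abcg1 in C22 and Scd2 and Lpl in C3) were added after their values were seen. On simulated counts for C3 against WT-C3 with 13993 genes, 29.9% of genes changed by a log2 of 0.5, 64.2% of those changed by 1 and 100% of those changed by 2 were recovered, and 6 of 13793 unchanged genes were called. Only 67, 67 and 66 genes were changed by these sizes, while 3345 genes were called in the data. With so few changed genes the adjusted threshold is stricter, so these shares do not measure recovery in the data. Libraries of equal age were taken as pairs where they resembled each other at each age once group means were removed, which was so only between C3 with and without c-Jun (r across genes of 0.44, 0.12, 0.35, 0.26 and 0.61 at rising age). Between WT-C22 and WT-C3 r was 0.34, 0.65, 0.15, 0.54 and 0.05. With the low value at 12 weeks these were not taken as pairs. Alternatives were median-ratio size factors, library sizes alone, DESeq2 1.42.0, no filter, filterByExpr, 1 fit of all libraries, a block for age and leaving out each library; for age, median-ratio factors, the log2 CPM filter, 2 degrees of freedom and leaving out each library. Pooling and the absence of a second pool mean that p values measure the spread between these libraries. Some genes of the lists are not reported here by name.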

Additional observations from a re-analysis of the deposited data

Results flagged for a closer look

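Among 40 sets of 5 libraries (8 genes in 5 groups), 1 held a library far from the others, by a test that flags about 5% of sets by chance: Insig1 in C22 was at 186 CPM at 9 weeks, with the next library at 97.2 CPM, a gap of 0.80 of the whole range. The effect of the model differed between C22 and C3 for 3 genes, by the edgeR test of the difference itself. The change in C22 lay below that in C3 by -0.45 log2 units for Srebf2 (edgeR adjusted p = 0.0134, and 0.0648 with no filter on low counts), by -0.47 for Scap (edgeR adjusted p = 0.0085) and by -0.96 for Stard4 (edgeR adjusted p = 0.00502).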

How the results depend on the processing

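In C3 against WT-C3 the 3 calls among the 8 genes (Insig1 and Stard4 lower, Mylip higher) held under each alternative and each library left out, the shallow 9-week C3 library included. In C22 against WT-C22 the counts of genes called lower and higher were 6 and 1; library sizes alone gave 3 and 2, DESeq2 2 higher, and leaving out a library 5 to 6 lower and 1 to 2 higher. For WT-C22 against WT-C3 (3 higher, 0 lower), leaving out a library gave 1 to 3 higher and 0 to 1 lower, and library sizes alone and the fit with age as a replicate block each gave 1 lower (Stard4, -0.42 and -0.41). For the difference of changes, Srebf2 was at -0.41 (edgeR adjusted p = 0.0648) without a filter. Over all genes, the calls for C3 without c-Jun against C3 were 77, and 250 in DESeq2, 131 without a filter, 139 with all libraries in 1 fit, 273 with age as a replicate block and 43 to 98 with a library left out. The cause of these shifts was not tested.

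Signs turned for values near 0. The Nr1h2 difference of changes (-0.00) was 0.01 with median-ratio factors and filterByExpr, 0.11 with library sizes alone, 0.02 in DESeq2 and with all libraries in 1 fit, 0.03 without a filter, 0.00 with the replicate block and -0.05 to 0.08 with a library left out. The Insig2 difference was 0.04 with library sizes alone, and Srebf2 in WT-C22 against WT-C3 was 0.00 without a filter. With a library left out, Nr1h3 in C3 against WT-C3 ran from -0.02 to 0.12, and in C3 without c-Jun against C3 Insig1 ran from -0.08 to 0.07 and Nr1h2 from -0.10 to 0.04.

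The count of genes with an age effect was 1, and 0 with the log2 CPM filter and 2 with 2 degrees of freedom; slopes passed 3 times, and 1 to 5 times with a library left out. The slope of Stard4 in WT-C22 lost its call without the 3-week or 12-week WT-C22 library (edgeR adjusted p = 0.278 and 0.129), that in C3 without c-Jun without its own 3-week or 12-week library (edgeR adjusted p = 0.0985 and 0.172). The slope of Nr1h2 in C3 without c-Jun lost it with median-ratio factors (0.0517), the log2 CPM filter (0.0599) and 11 of the 25 single libraries left out (up to 0.203, without its own 12-week library). Where libraries of equal age were not pairs, the block changed no other call among the 8 genes than Stard4 above and the Nr1h3 difference of changes (-0.62, edgeR adjusted p = 0.0164). With 5 libraries per group, small changes can be missed. The share missed in these data is not known, since the simulation changed far fewer genes than were called here. The smallest counts of the 8 genes, 73 for Nr1h3 and 80 for Insig2, came from the 9-week C3 library.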
